A study of Homo sapiens with 4 samples.

Results

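FGF receptors and the genes that report and restrain their ERK signal were followed in differentiating human embryonic stem cells with and without a block of Wnt secretion. The set held 10 genes chosen by symbol, namely the receptors FGFR1, FGFR2, FGFR3 and FGFR4, the Sprouty inhibitors SPRY1, SPRY2 and SPRY4, the phosphatase DUSP6, and the ETS factors ETV4 and ETV5. They were 10 of the 56595 gene symbols in the table. The RNA came from H1, an established human embryonic stem cell line, after 2 days of hematopoietic differentiation, when the cells are driven toward mesoderm. All cultures received activin A at 40 ng/ml and BMP4 at 50 ng/ml in Custom mTeSR1 medium per the labels. The methods text gives these amounts the other way round, and neither source used here says how much FGF the custom medium held or how much IWP2 was added. IWP2 is a small molecule that blocks Porcupine, the enzyme that fits Wnt proteins for secretion, and it was used to ask whether Wnt signaling is needed for the mesoderm step and its mesenchymal genes. The DMSO group (solvent, no IWP2) and the IWP2 group had 2 libraries each. Nothing in the labels says that replicates came from separate cultures, so p-values measure the spread between these libraries only, which may be technical.

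FGF ligands bind tyrosine kinase receptors together with heparan sulfate, and the active receptor recruits adaptors that switch on RAS, RAF, MEK and ERK. ERK then raises transcription of its own inhibitors, among them Sprouty proteins and DUSP6, and of the ETS factors ETV4 and ETV5, so these transcripts are commonly used as a readout of FGF and ERK activity. In the gastrulating embryo FGF signaling acts in the primitive streak and is needed for mesoderm to form and migrate.

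With IWP2, SPRY4, DUSP6 and ETV4 were downregulated and FGFR3 was upregulated, whereas the other 6 genes did not pass the test. All 10 genes were measured at a mean of at least 1 FPKM (fragments scaled to transcript length and library depth, so that genes can be compared), the level required for testing. Calls were made with limma on log2(FPKM + 1) at a Benjamini-Hochberg adjusted p under 0.05 over 14010 genes, and fold changes are given on that scale as IWP2 minus DMSO. Of the 10 genes, 4 were called, beside 15.2% of all genes tested. There were 3 called lower, beside 8.45% of all genes, and 1 called higher, beside 6.77%. The median log2 fold change was -0.32 over the 10 genes and -0.02 over all genes tested. The libraries of the groups did not overlap for 9 of the 10 genes, beside 59.9% of all genes tested, and SPRY2 was the exception. Each of the 4 calls was lost when either IWP2 library was left out, which leaves the DMSO pair alone to give the spread, whereas the direction of the 4 changes was kept. All 4 libraries came from bulk RNA, in which fewer cells of a type and less RNA per cell cannot be told apart.

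**Figure D1:**
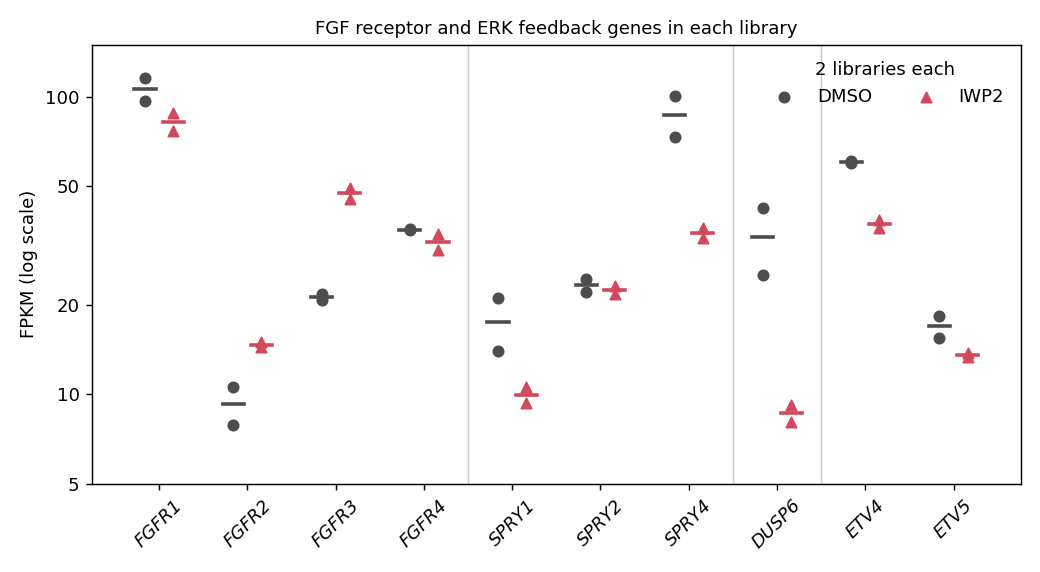
FPKM of the 10 genes in each library on a log axis, with DMSO libraries as circles, IWP2 libraries as triangles and a line at each group mean (2 libraries per group). SPRY4, DUSP6 and ETV4 are well below their DMSO libraries with IWP2, FGFR3 is above them, and the SPRY2 libraries overlap.

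FGFR1, the main receptor of early mesoderm, was the most abundant of the 4 in every library. It was at 115.87 and 96.6 FPKM in the DMSO libraries and at 88.5 and 76.6 FPKM in the IWP2 libraries. Both IWP2 libraries were below both DMSO libraries, but by less than the gap between replicates of either group. Its log2 fold change was -0.36 (SE 0.127, 95% interval -0.68 to -0.036), which did not pass (adjusted p = 0.131).

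FGFR3, a receptor best known as a brake on bone growth, was the receptor that changed. It was at 21.8 and 20.7 FPKM with DMSO and at 49.4 and 45.4 FPKM with IWP2. The libraries of each group lay close together and the groups were far apart. The mean rose 2.23-fold, from 21.3 ± 0.780 to 47.4 ± 2.82 FPKM (SD, n = 2 libraries each). On the log2 scale the change was 1.12 (SE 0.0928, adjusted p = 0.00279), and 2.74% of all genes tested had a higher value. Without IWP2 replicate 1 the fold change was 1.06 and the adjusted p 0.0554, and without IWP2 replicate 2 they were 1.18 and 0.0507. FGFR3 (ENSG00000068078) lies on the plus strand at chr4:1793307-1808872 of GRCh38.

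FGFR2, whose splice forms distinguish epithelial from mesenchymal cells, was the scarcest receptor. It was at 7.89 and 10.6 FPKM with DMSO and at 14.9 and 14.4 FPKM with IWP2. Both IWP2 libraries were above both DMSO libraries, which differed more from each other than the IWP2 pair did. The log2 fold change of 0.63 (SE 0.155, 95% interval 0.24 to 1.02) missed the threshold (adjusted p = 0.0549). It passed under some other settings, with adjusted p = 0.0407 after centring each library on its median and 0.0437 without DMSO replicate 2. The table is by gene, so the splice forms could not be compared.

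FGFR4, a receptor prominent in endoderm derivatives such as liver, was nearly level. It was at 35.8 and 35.7 FPKM with DMSO and at 30.6 and 34.6 FPKM with IWP2. The DMSO pair was closer together than in most genes, and the upper IWP2 library was only just below it. The log2 fold change was -0.13 with a 95% interval of -0.38 to 0.11 (adjusted p = 0.424), so a fall of that lower bound was not excluded by these libraries.

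The receptors were also read as shares of their sum. Summed FPKM of the 4 receptors was 181 and 164 with DMSO and 183 and 171 with IWP2, and these ranges overlapped. FGFR1 made up 63.9% and 59.1% of that sum with DMSO and 48.2% and 44.8% with IWP2. FGFR3 made up 12.0% and 12.7% with DMSO and 26.9% and 26.6% with IWP2. FGFR1 was the leading receptor in all libraries, but the order below it changed. With DMSO, FGFR4 was above FGFR3, and with IWP2, FGFR3 was above FGFR4, in both libraries of each group. FGFR1 exceeded FGFR3 by 5.31 and 4.66 times with DMSO and by 1.79 and 1.69 times with IWP2. An exact two-sided permutation test cannot go below p = 0.333 with 2 against 2 libraries, the value it gave here, so ratios and shares are given as a description without a call.

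**Figure D2:**
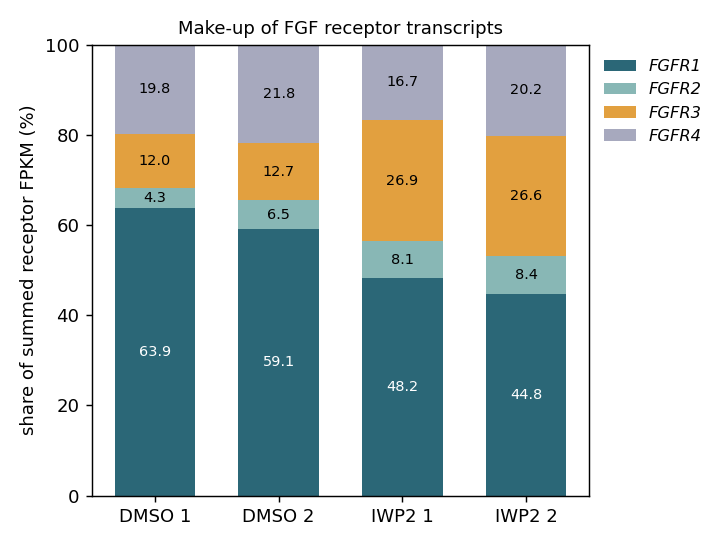
Share of each FGF receptor in the summed FPKM of FGFR1 to FGFR4 (percent, stacked bars starting at 0, a bar per library). The FGFR3 segment is 12.0% and 12.7% with DMSO and 26.9% and 26.6% with IWP2, and the FGFR1 segment is smaller with IWP2.

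The Sprouty genes encode membrane-linked inhibitors that act between the receptor and RAF. SPRY4 was downregulated. It was at 100.6 and 73.1 FPKM with DMSO and at 36.2 and 33.5 FPKM with IWP2. Even the lower DMSO library was well above both IWP2 libraries. The mean fell from 86.8 ± 19.5 to 34.8 ± 1.93 FPKM (SD, n = 2 libraries each), a 2.49-fold difference, and the log2 fold change was -1.28 (SE 0.164, adjusted p = 0.00871). Only 3.24% of genes had a lower value. Without IWP2 replicate 1 the adjusted p was 0.0947, without IWP2 replicate 2 it was 0.107, and with no filter on low values it was 0.0858. SPRY4 (ENSG00000187678) lies on the minus strand at chr5:142310427-142326455, and SPRY4-AS1, annotated on the other strand, was at 0.171 to 1.33 FPKM.

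SPRY2 was level, at 24.4 and 22.1 FPKM with DMSO and at 21.8 and 23.1 FPKM with IWP2. The groups overlapped. The log2 fold change was -0.05 with a 95% interval of -0.30 to 0.20 (adjusted p = 0.797), an interval that does not reach the fold change of SPRY4. SPRY1 was at 14.0 and 21.0 FPKM with DMSO and at 9.34 and 10.6 FPKM with IWP2. Both IWP2 libraries were lower, but the DMSO libraries were far apart, with a gap larger than in all but 8.04% of genes. Its log2 fold change of -0.73 (SE 0.203, 95% interval -1.25 to -0.22) did not pass (adjusted p = 0.0739), although it passed without DMSO replicate 1 (adjusted p = 0.0351). Of the summed Sprouty FPKM, SPRY4 made up 72.4% and 62.9% with DMSO and 53.8% and 49.8% with IWP2, while SPRY2 made up 17.5% and 19.0% with DMSO and 32.3% and 34.4% with IWP2. SPRY4 remained the most abundant of the 3 in every library.

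The bases upstream of the start are shown for FGFR3 and SPRY4, which moved in opposite directions, and for SPRY2, which overlapped between groups. They were taken from RefSeq on GRCh38.p14, cover the 250 bases before an annotated start, and run 5′ to 3′ on the strand of the gene. Capitals mark the GC box GGGCGG and the letters CCGGAA, used here as a strict ETS motif, on either strand. Shorter or variant ETS letters, such as GGAA alone, were not marked or counted.
FGFR3, chr4:1793043-1793292, plus strand: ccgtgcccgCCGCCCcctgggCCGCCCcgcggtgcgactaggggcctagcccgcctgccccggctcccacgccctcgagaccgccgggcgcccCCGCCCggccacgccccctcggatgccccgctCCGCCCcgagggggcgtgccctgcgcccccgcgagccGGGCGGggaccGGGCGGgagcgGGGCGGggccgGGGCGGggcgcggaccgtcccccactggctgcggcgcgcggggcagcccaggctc
SPRY4, chr5:142324248-142324497, minus strand: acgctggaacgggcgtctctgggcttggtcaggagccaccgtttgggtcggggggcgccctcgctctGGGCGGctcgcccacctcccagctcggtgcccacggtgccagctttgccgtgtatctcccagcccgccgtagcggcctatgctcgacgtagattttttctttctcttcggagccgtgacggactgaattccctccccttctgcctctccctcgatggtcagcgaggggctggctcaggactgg
SPRY2, chr13:80341127-80341376, minus strand: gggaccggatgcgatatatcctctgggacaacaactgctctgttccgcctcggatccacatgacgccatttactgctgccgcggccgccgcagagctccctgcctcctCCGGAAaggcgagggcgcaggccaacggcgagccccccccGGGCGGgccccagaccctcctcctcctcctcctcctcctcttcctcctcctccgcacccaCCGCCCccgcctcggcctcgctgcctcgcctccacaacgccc
The FGFR3 window was 86.8% G and C and held 8 GC boxes. The SPRY4 window was 65.6% G and C with 1 GC box, and an exon of a noncoding SPRY4 transcript overlaps it. The SPRY2 window shown was 70.4% G and C with 1 CCGGAA and 2 GC boxes. The other SPRY2 windows searched held neither motif. The window of DUSP6, a called gene, is not shown and also held neither.

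Over all 15 upstream windows searched, which belong to 7 of the 10 genes, the motifs were counted beside all windows of the same length. CCGGAA was in 2 of the 15 windows (13.3%) and in 14.5% of all 35116 upstream windows. GGGCGG was in 7 (46.7%) and in 42.6% of all windows. The TCF/LEF letters CTTTGAT and the AP-1 letters TGACTCA were in 0 of the 15, against 2.26% and 4.2% of all windows. Both strands were read, and none of the 4 motifs contains another. No window was searched for ETV4, ETV5 and FGFR1. A match is a run of letters only, and its absence speaks for this window alone.

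DUSP6 encodes a cytoplasmic phosphatase that removes the activating phosphates from ERK, and its log2 fold change was the lowest of the 10 genes. It was at 42.4 and 25.1 FPKM with DMSO and at 9.19 and 8.09 FPKM with IWP2. The DMSO libraries differed from each other 1.69-fold, a wider gap than in all but 4.32% of genes, yet the lower of them was far above both IWP2 libraries. The mean was 33.8 ± 12.2 FPKM with DMSO and 8.64 ± 0.777 FPKM with IWP2 (SD, n = 2 libraries each), a 3.91-fold difference. On the log2 scale the change was -1.81 (SE 0.249, 95% interval -2.44 to -1.18, adjusted p = 0.0105), and 1.79% of genes had a lower value. Its size depended on the DMSO libraries, with -1.44 without DMSO replicate 1 and -2.17 without DMSO replicate 2. The call was lost without IWP2 replicate 1 (adjusted p = 0.105), without IWP2 replicate 2 (0.122) and with no filter on low values (0.101). DUSP6 (ENSG00000139318) lies on the minus strand at chr12:89347232-89353271. An antisense gene there, AC024909.2, was at 0.957 and 1.11 FPKM with DMSO and 0.266 and 0.211 FPKM with IWP2, and since no source used here states that counting used strand, reads of the pair cannot be told apart.

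ETV4 and ETV5 encode ETS factors of the PEA3 group, which carry the FGF signal to its target genes. ETV4 was at 60.0 and 61.0 FPKM with DMSO and at 36.2 and 38.6 FPKM with IWP2. The groups were cleanly separated, and its DMSO libraries were closer together than those of any of the 10 genes but FGFR4. The mean fell from 60.5 ± 0.683 to 37.4 ± 1.70 FPKM (SD, n = 2 libraries each), with a log2 fold change of -0.68 (SE 0.0837, adjusted p = 0.00774). The call was lost without IWP2 replicate 1 (adjusted p = 0.0877) and without IWP2 replicate 2 (0.0730). ETV4 (ENSG00000175832) lies on the minus strand at chr17:43527844-43579620 and overlaps DHX8 on the other strand, which was at 17.5 and 20.2 FPKM with DMSO and 15.0 and 13.2 FPKM with IWP2. As for DUSP6, use of strand in counting is not stated, so reads from the span shared with DHX8 cannot be told apart.

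ETV5 was at 18.4 and 15.5 FPKM with DMSO and at 13.4 and 13.8 FPKM with IWP2. The IWP2 libraries were lower, but the gap to the nearer DMSO library was smaller than the gap between the DMSO libraries. The log2 fold change was -0.29 (SE 0.118, 95% interval -0.59 to 0.0074), which did not pass (adjusted p = 0.174). ETV4 exceeded ETV5 by 3.27 and 3.94 times with DMSO and by 2.70 and 2.80 times with IWP2.

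**Figure D3:**
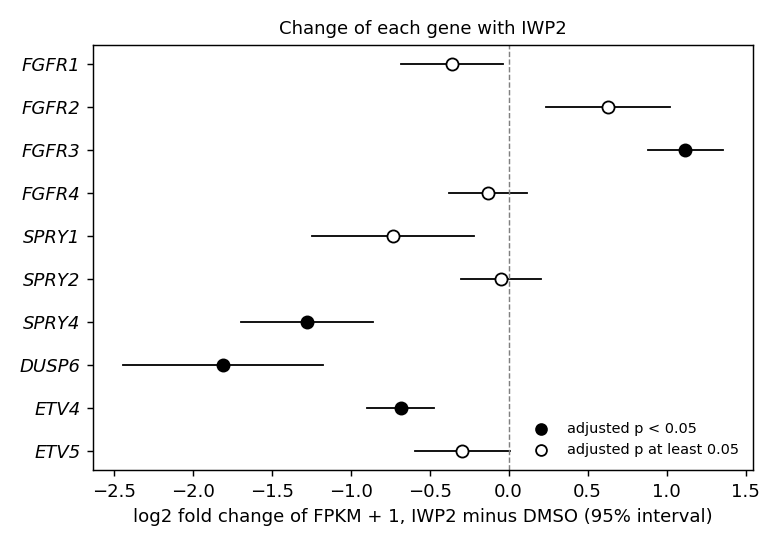
Log2 fold change of FPKM + 1 (IWP2 minus DMSO) of the 10 genes with 95% intervals from limma. Filled points passed at an adjusted p under 0.05, which were FGFR3 above 0 and SPRY4, DUSP6 and ETV4 below 0.

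Ratios within a library set the readout genes beside SPRY2. DUSP6 was at 1.74 and 1.14 times the FPKM of SPRY2 with DMSO and at 0.422 and 0.350 times with IWP2. SPRY4 was at 4.13 and 3.30 times that of SPRY2 with DMSO and at 1.66 and 1.45 times with IWP2. In each ratio the groups did not overlap, which follows from the separated groups of DUSP6 and SPRY4 over the level SPRY2. The ratios are a description and add no support.

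**Figure D4:**
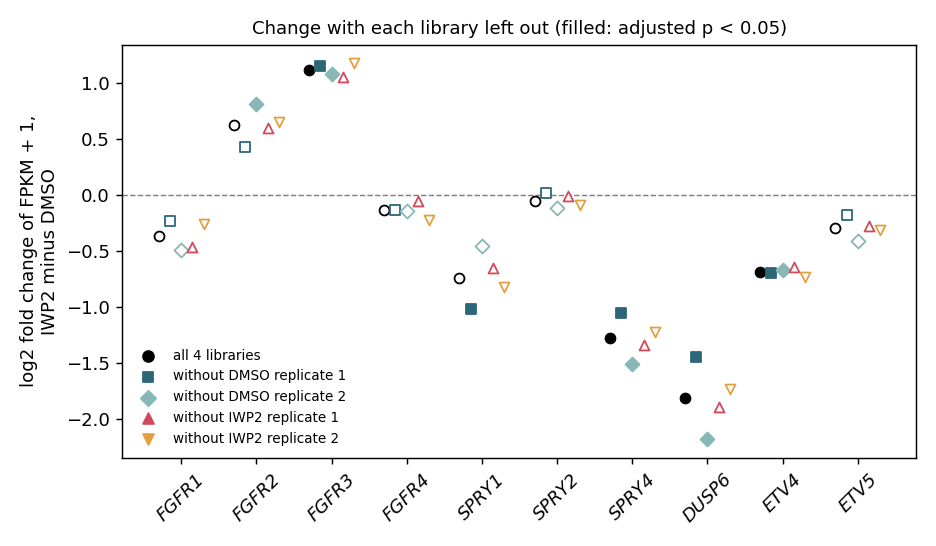
Log2 fold change of FPKM + 1 (IWP2 minus DMSO) of the 10 genes with all 4 libraries and with each library left out in turn, filled where the adjusted p was under 0.05. No gene is filled when an IWP2 library is left out, while the values of FGFR3, SPRY4, DUSP6 and ETV4 stay on their side of 0.

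Between receptor and ERK, 8 adaptors that link the receptor to RAS and 11 genes of the RAS, RAF, MEK and ERK cascade were tested. Of the adaptors 0 passed and of the cascade genes 0 passed, beside 15.2% of all genes tested, so few calls would be found in lists of this size at that share. The most abundant, SHC1, was at 108 and 101 FPKM with DMSO and 131 and 119 FPKM with IWP2 (adjusted p = 0.130), and GRB2 was at 91.8 and 79.5 FPKM against 75.9 and 75.0 FPKM (adjusted p = 0.299). The median log2 fold change was -0.24 for the adaptors and -0.05 for the cascade genes, beside -0.02 over all genes tested. Values were below 0 for 6 of 8 adaptors and 6 of 11 cascade genes. The kinase MAP2K2, which phosphorylates ERK, was at 68.2 and 70.7 FPKM with DMSO and 70.0 and 74.7 FPKM with IWP2, and HRAS was at 60.6 and 56.8 FPKM against 51.6 and 54.5 FPKM. The scaffold KSR1, named after its values were seen, was nearest to the threshold, with a log2 fold change of -0.87 and an adjusted p of 0.0523, and it passed with a mean FPKM of at least 5 (adjusted p = 0.0394), after rescaling to TPM (0.0419), with robust eBayes (0.0480) and without IWP2 replicate 1 (0.0437). At an unadjusted p under 0.05, 4 of the adaptors and 3 of the cascade genes passed, beside 4248 of all 14010 genes tested.

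Other inhibitors of the pathway moved in the direction of SPRY4 and DUSP6 where they passed. FGFRL1, an FGF receptor that lacks the kinase and is regarded as a decoy, was at 16.2 and 17.1 FPKM with DMSO and at 8.56 and 7.94 FPKM with IWP2 (log2 fold change -0.93, adjusted p = 0.00593). The co-receptors KL and KLB were below the level tested. Of 5 further Sprouty, SPRED and SEF genes, 4 were tested, 2 were called lower and 0 higher, beside 8.45% lower and 6.77% higher of all genes. IL17RD, the gene of SEF, was at 21.4 and 24.3 FPKM with DMSO and at 12.6 and 10.6 FPKM with IWP2 (log2 fold change -0.93, adjusted p = 0.0108). SPRED2, which blocks activation of RAF, was at 10.5 and 10.8 FPKM against 5.88 and 5.06 FPKM (log2 fold change -0.85, adjusted p = 0.0118). These 3 genes, named because they were called, lay lower in both IWP2 libraries than in either DMSO library. Of the 4 tested Sprouty, SPRED and SEF genes, 2 did not overlap between groups, beside 59.9% of all genes tested. The other tested genes of the Sprouty, SPRED and SEF list did not pass, with log2 fold changes of 0.0084 for SPRED1 and 0.31 for SPRED3, and SPRY3 was listed at 0 in every library. Without IWP2 replicate 1 and without IWP2 replicate 2, the adjusted p was 0.0727 and 0.0871 for FGFRL1, 0.0729 and 0.105 for IL17RD, and 0.0879 and 0.121 for SPRED2. Without DMSO replicate 2, it was 0.0654 for IL17RD and 0.0701 for SPRED2, and without DMSO replicate 1 it was 0.0580 for SPRED2.

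The other MAP kinase phosphatases included genes that fell with DUSP6. Of 9, 8 were tested, 4 were called lower and 0 higher, beside 8.45% lower and 6.77% higher of all genes, and the median log2 fold change of those tested was -0.46. DUSP5, a nuclear ERK phosphatase, was at 45.8 and 41.8 FPKM with DMSO and at 10.9 and 11.7 FPKM with IWP2 (log2 fold change -1.86, adjusted p = 0.000729). DUSP4, another nuclear phosphatase, was at 3.45 and 4.62 FPKM against 0.465 and 0.321 FPKM (log2 fold change -1.85, adjusted p = 0.00544). Adding 1 FPKM shrinks the change of scarce genes. With 0.1 added instead, the log2 fold change was -3.07 for DUSP4 and -1.95 for DUSP5. DUSP10, which acts on p38 and JNK rather than ERK, was at 5.86 and 6.98 FPKM against 1.51 and 1.24 FPKM. Its log2 fold change was -1.64 (adjusted p = 0.00419), and -2.14 with 0.1 added. DUSP7, the cytoplasmic relative of DUSP6, was at 13.0 and 14.3 FPKM against 7.53 and 6.98 FPKM (log2 fold change -0.83, adjusted p = 0.0102). All 4, named because they were called, were lower in both IWP2 libraries. Of the 8 tested, 7 did not overlap between groups, beside 59.9% of all genes tested. DUSP5 also passed without either IWP2 library (adjusted p = 0.0286 without IWP2 replicate 1 and 0.0288 without IWP2 replicate 2). In that order, the values were 0.0632 and 0.0710 for DUSP4, 0.0582 and 0.0678 for DUSP10, and 0.0985 and 0.118 for DUSP7, and without DMSO replicate 2 DUSP7 was at 0.0613.

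Of 12 other ERK-responsive genes, 11 were tested, 3 were called lower and 0 higher, beside 8.45% lower and 6.77% higher of all genes, and the median log2 fold change was -0.04. FLRT3, a membrane protein expressed with FGF signaling, was at 6.71 and 4.25 FPKM with DMSO and at 1.00 and 0.857 FPKM with IWP2. Its log2 fold change was -1.72 (adjusted p = 0.00938), and -2.41 with 0.1 in place of 1 added to FPKM. IER3, an immediate early gene, was at 41.5 and 42.8 FPKM against 14.0 and 14.6 FPKM (log2 fold change -1.50, adjusted p = 0.000985). ELK3, an ETS factor phosphorylated by ERK, was at 13.0 and 15.5 FPKM against 7.86 and 9.65 FPKM (log2 fold change -0.64, adjusted p = 0.0455). Of the 11 tested, 4 did not overlap between groups, beside 59.9% of all genes tested. These 4 include the 3 named, which were named because they were called. IER3 passed with any library left out, FLRT3 did not without IWP2 replicate 1 (adjusted p = 0.0973) or IWP2 replicate 2 (0.107), and ELK3 passed with none left out, at 0.0830 without DMSO replicate 1, 0.170 without DMSO replicate 2, 0.242 without IWP2 replicate 1 and 0.144 without IWP2 replicate 2. Among genes named after their values were seen, the immediate early gene FOS was at 0.807 and 0.645 FPKM with DMSO and 1.66 and 1.86 FPKM with IWP2 (log2 fold change 0.68, adjusted p = 0.0732). MYC was at 23.8 and 30.2 FPKM against 30.2 and 31.3 FPKM (adjusted p = 0.401).

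**Figure D5:**
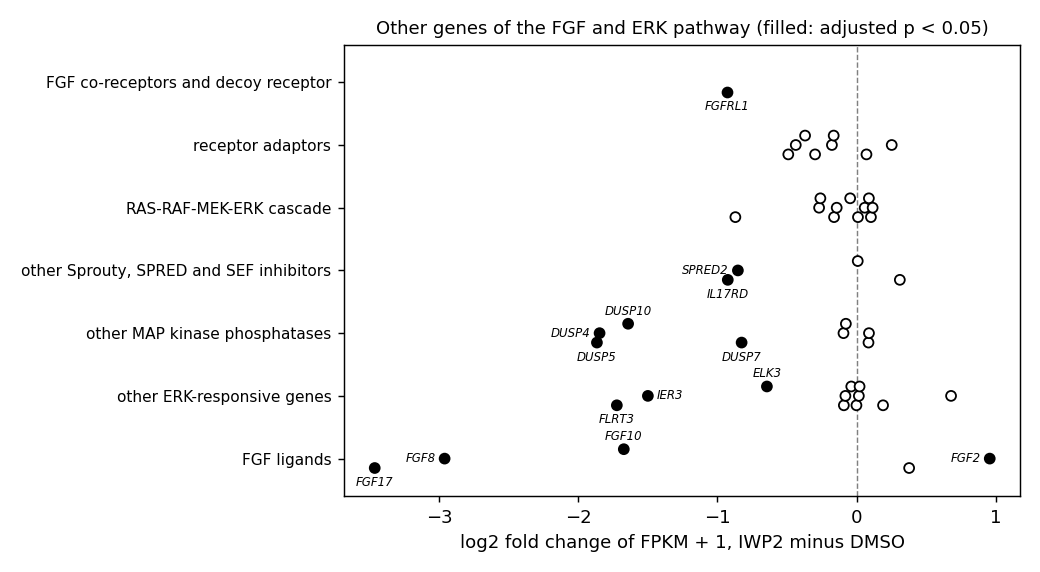
Log2 fold change of FPKM + 1 (IWP2 minus DMSO) of the tested genes of 7 other pathway lists, 1 point per gene, filled and named where the adjusted p was under 0.05. The adaptor and cascade rows hold open points only, and the filled points lie below 0 apart from FGF2.

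Among 18 FGF ligand genes, 5 were tested, 3 were called lower and 1 higher, beside 8.45% and 6.77% of all genes. FGF8 was at 14.8 and 16.7 FPKM with DMSO and 1.19 and 1.12 FPKM with IWP2, FGF17 at 14.7 and 10.2 FPKM against 0.218 and 0.187 FPKM, FGF10 at 9.70 and 12.1 FPKM against 2.62 and 2.81 FPKM, and FGF2 at 11.5 and 11.0 FPKM against 22.4 and 23.1 FPKM. FGF8 and FGF17 passed with any library left out, whereas without IWP2 replicate 1 and without IWP2 replicate 2 the adjusted p was 0.0620 and 0.0618 for FGF10 and 0.0704 and 0.0781 for FGF2.

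Markers of cell state moved with the same groups, and their part in the results above was not tested. Beside the counts that follow, 8.45% of all genes tested were called lower and 6.77% higher. All 8 of 8 primitive streak and mesoderm markers were called lower, with a summed level of 942 to 1163 FPKM with DMSO and 55.0 to 59.4 FPKM with IWP2, led by APLNR, MIXL1 and EOMES. Of 8 Wnt target genes, 5 were called lower, with a sum of 147 to 162 FPKM against 17.3 to 18.4 FPKM. The 5 were SP5, NKD1, LGR5, AXIN2 and LEF1. SP5 was at 53.2 and 47.0 FPKM with DMSO and 0.379 and 0.363 FPKM with IWP2. NKD1 was at 38.2 and 52.3 FPKM against 1.70 and 1.56 FPKM. LGR5 was at 21.5 and 27.8 FPKM against 0.105 and 0.0763 FPKM, and AXIN2 at 14.2 and 15.2 FPKM against 6.45 and 5.58 FPKM. RNF43, ZNRF3 and TNFRSF19 did not pass (adjusted p = 0.721, 0.358 and 0.0541). The RNF43 libraries overlapped, and ZNRF3 was higher with IWP2, at 7.04 and 6.49 FPKM against 5.66 and 5.97 FPKM with DMSO. Of 7 pluripotency markers, 4 were called higher, namely SOX2, POU5F1, DPPA4 and ZFP42, and 1, TDGF1, lower. NANOG and LIN28A did not pass (adjusted p = 0.165 and 0.745). The sum was 1190 to 1369 FPKM against 2490 to 2495 FPKM. It was led by POU5F1, at 751 and 571 FPKM against 1854 and 1844 FPKM. SOX2 was at 0.193 and 0.174 FPKM against 35.6 and 36.1 FPKM, and TDGF1 at 203 and 221 FPKM against 103 and 98.6 FPKM. Among 6 definitive endoderm markers 5 were called lower (1917 to 2307 FPKM against 126 to 137 FPKM). With DMSO that sum was mostly CER1, at 1612 and 2048 FPKM against 38.6 and 34.2 FPKM with IWP2. SOX17, at 155 and 104 FPKM against 79.7 and 94.9 FPKM, did not pass (adjusted p = 0.151) and was most of the sum with IWP2. Among 7 hemato-endothelial markers 3 were tested and 2 called lower (62.0 to 66.6 FPKM against 38.8 to 41.0 FPKM). Only 1 of 6 neuroectoderm markers, OTX2, was tested, and it was called lower, at 55.8 and 61.2 FPKM against 2.19 and 2.95 FPKM. The sum over the 6 was 57.6 to 62.1 FPKM against 3.14 to 3.16 FPKM. Of 8 amnion and trophoblast markers 6 were tested, with 1 called lower and 2 higher. Their sum of 312 to 409 FPKM against 192 to 216 FPKM was mostly HAND1, called lower at 234 and 322 FPKM against 101 and 119 FPKM, whereas TFAP2A, at 16.5 and 12.0 FPKM against 34.0 and 34.2 FPKM, and KRT7, at 0.833 and 0.864 FPKM against 5.85 and 8.22 FPKM, were called higher. KRT7 was named after its values were seen. HES5 was the only marker at 0 in every library. Without either IWP2 library, 6 streak and mesoderm, 4 Wnt target and 2 endoderm markers were called lower, 1 pluripotency marker higher and 0 hemato-endothelial markers lower. The streak factor TBXT was present in all libraries, at 9.40 and 10.4 FPKM with IWP2 and 21.6 and 18.5 FPKM with DMSO. Its log2 fold change of -0.94 was the smallest fall of the 8 streak and mesoderm markers. APLNR, by which the paper marks mesoderm cells, was at 2.97 and 2.39 FPKM with IWP2 and 380 and 512 FPKM with DMSO. Across all genes tested, log2 values correlated at r = 0.973 and 0.980 within groups and at 0.927 to 0.938 between them, as a description over genes that are not replicates.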

How the data were processed

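The authors deposited 1 table of FPKM per gene for 2 DMSO and 2 IWP2 libraries of H1 cells. BWA, Bowtie, RSEM and hg19 are named in the submitters' processing notes, with roles and versions not given in the sources used here. Gene positions in the deposited table match GENCODE 29 on GRCh38 for 96.9% of 58365 rows, so GRCh38 is used. A count model was not run, since the table holds no counts. Depth was estimated from low FPKM, which fall into steps of whole fragments, at 18100000 to 22200000 fragments per library. Each of the 10 genes then rested on about 500 fragments or more in its lowest library, a counting error of at most 4.5%. Columns named with a minus sign were taken as DMSO and those with a plus sign as IWP2, and DMSO libraries carry the number in their column name.

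Of rows that share a symbol, the one with the highest mean was kept (1770 dropped). FPKM + 1 was taken to log2 and fitted with limma 3.58.1 in R 4.3.3 (eBayes with trend, two-sided) for genes with a mean FPKM of at least 1, with Benjamini-Hochberg adjustment over all genes tested. The script was tested on simulated data. The 10 genes and all lists were chosen with earlier results of these data known. All 10 are named, with up to 4 called genes per pathway list by size of change (the 2 most abundant where none was called). Naming up to 3 abundant markers per list was planned but not kept to in every list. Other markers were named after their values were seen. Alternatives changed the pseudocount, filter, scaling, limma settings, block or libraries. Protein sequences were not used here.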

Additional observations from a re-analysis of the deposited data

How the results depend on the processing

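Of all genes tested, 2133 were called, 949 higher and 1184 lower. With no filter on low values 384 were called (118 higher, 266 lower), and with a library left out 243 to 1384 (62 to 662 higher, 181 to 722 lower), the fewest without either IWP2 library (306 without replicate 1, 243 without replicate 2). The 4 calls among the 10 genes (1 higher, 3 lower) became 2 with no filter (1 higher, 1 lower) and 0 to 5 with a library left out (0 to 2 higher, 0 to 4 lower). FGFR2 joined FGFR3, giving 2 higher, with a mean FPKM of at least 5, centring on the median, quantile normalization, robust eBayes and without DMSO replicate 2. Fewer libraries, or more genes tested, are part of those settings, and the cause was not tested further. No called result reversed, and SPRY2, not called, changed sign on centring (0.02), quantile normalization (0.0024) and without DMSO replicate 1 (also 0.02). With no filter, DUSP4, DUSP7, DUSP10, IL17RD, SPRED2, FLRT3, ELK3 and FGF10 also missed the threshold, with adjusted p from 0.0536 to 0.159, and ELK3 missed it on centring (0.0621), quantile normalization (0.0648) and without the trend (0.0636). The replicate numbers only name libraries: the differences between replicates 1 and 2 correlated at 0.148 between the groups, over 2 pairs, and no label ties them. With a replicate block 1931 genes were called, 1810 of them shared with the fit without it, and SPRY1 was added at an adjusted p of 0.0364, and KSR1 of the cascade at 0.0443. By the depth estimate, FGFR2, SPRY1 and DUSP6 rest on the fewest fragments, with counting errors of 4.5%, 4.3% and 3.8% in their lowest library, below the gaps between their DMSO libraries (1.34-fold to 1.69-fold).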
